A study of Homo sapiens with 6 samples.

Results

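The 80 genes described here encode the proteins of the cytosolic ribosome. They were chosen by symbol from the protein-coding genes of GENCODE release 44: RPL or RPS followed by a number with an optional A, X or L, together with RPLP0, RPLP1, RPLP2 and RPSA. Of the 60612 genes in each table, 49 members belonged to the large subunit and 31 to the small subunit. The rule uses no measured value, although the family was taken up with earlier results of these data known. RNA sequencing had been performed on HCT116, a long-established line of human colorectal carcinoma cells, to examine what overexpression of the small nucleolar RNA SNORA28 changes. The control group, LV-NC, held 3 libraries of HCT116 cells infected with a negative-control lentivirus, and the LV-SNORA28 group held 3 libraries of HCT116 cells infected with a lentivirus that overexpressed SNORA28. All 6 libraries shared the cell line, lentiviral infection and a poly(A)-selected, strand-marked library, and no irradiation is named in their labels. All were of 1 cell line, and the labels do not say whether replicates were separate cultures, so p-values measure only the spread between these libraries.

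The ribosome reads messenger RNA on its small subunit and joins amino acids on its large subunit. Each subunit is built in the nucleolus from ribosomal RNA and a fixed set of proteins, most of them present once per ribosome. Small nucleolar RNAs of the H/ACA class, to which SNORA28 belongs, guide the change of uridine to pseudouridine in ribosomal and other RNAs. Messenger RNAs of ribosomal proteins are among the most abundant of dividing cells. Most begin with a C followed by a run of pyrimidines, the 5′ terminal oligopyrimidine (TOP) tract, through which growth signals adjust their translation together. Many ribosomal protein genes have numerous processed pseudogenes of nearly the same sequence, and short reads can be shared between a gene and such copies.

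The start sites are shown first because the pyrimidine start is what the genes have in common in sequence. RefSeq windows on GRCh38.p14, from 250 bases before to 50 bases from the start, were matched for 63 of the 80 members by symbol (78 windows). In 46 of these 78 windows, 59.0%, the start base was C and at least 4 further C or T followed, against 4.07% of all 35116 windows. Below, 15 bases before the start site are followed by the first 15 transcribed bases, and capitals mark the unbroken run of C and T that begins at the start. The first 4 are the members that passed the test between the groups, the next 3 are among the members with the highest levels, and the last 4 are genes outside the family rule that also passed the test.
RPL36 (chr19:5690280-5690309, plus strand): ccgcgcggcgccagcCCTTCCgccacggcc
RPL13A (chr19:49487593-49487622, plus strand): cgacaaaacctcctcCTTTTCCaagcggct
RPS24 (chr10:78033848-78033877, plus strand): cggcgaatcgtggttCTCTTTTCCTCCTTg
RPL14 (chr3:40457324-40457353, plus strand): gggcgggtcttcttcCTTCTCgcctaacgc
RPS12 (chr6:132814554-132814583, plus strand): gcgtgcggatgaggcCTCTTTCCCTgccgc
RPS18 (chr6:33272060-33272089, plus strand): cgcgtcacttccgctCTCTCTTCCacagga
RPL41 (chr12:56116618-56116647, plus strand): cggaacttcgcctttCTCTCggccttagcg
EEF1A1 (chr6:73521018-73521047, minus strand): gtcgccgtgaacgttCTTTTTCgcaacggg
EIF4B (chr12:53006441-53006470, plus strand): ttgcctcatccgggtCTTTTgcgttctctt
RPL22L1 (chr3:170870181-170870210, minus strand): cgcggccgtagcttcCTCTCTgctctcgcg
RPL36AL (chr14:49620612-49620641, minus strand): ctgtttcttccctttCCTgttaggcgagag
In the window of RPL36AL the run was 3 bases long, below the 5 set for a pyrimidine start, and in the other 10 windows it was 5 bases or longer. RPL14, the member that rose, carried the same kind of start as the 3 members that fell. Over the tested members, the median log2 fold change was −0.13 in the 46 with such a start. It was −0.13 in the 16 whose windows had none, and 15 tested members had no window. The run was read only from the annotated start base. In some of the 16, such as RPL4, RPL9 and RPL10A, a run of C and T began a few bases after it. The equal medians therefore cannot decide whether members with and without the tract differ.

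Other motifs were searched on both strands of the whole windows. The letters CTTTCC were in 47.4% of member windows and 26.3% of all windows, and CTTTTC in 32.1% and 21.0%; both can overlap the start tract. CCGGAAG, the core of sites bound by ETS factors, was in 33.3% of member windows against 10.3% of all, and AAGATGGCG, the core of YY1 sites, in 6.41% against 1.75%. These matches are descriptions of letters and say nothing about binding.

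The deposited unit was FPKM, in which fragments are divided by transcript length and by the mapped total, so levels are comparable between genes per length but are relative within a library. Sequencing depth was not given, so no counting interval can be attached. SNORA28 itself was listed at 0.92, 0 and 0.64 FPKM across the LV-NC replicates, against 15.0, 13.7 and 15.2 across the LV-SNORA28 replicates, in the order of the replicate numbers, which is the direction that the labels give. Summed over all genes, the FPKM of a library averaged 349575 ± 21861 in the control group and 315045 ± 7834 (SD, n = 3) with SNORA28. Mitochondrially encoded genes made up 44.4% ± 2.83 of that sum in LV-NC libraries and 37.3% ± 1.25 in LV-SNORA28 libraries (SD, n = 3), with LV-NC 2 highest at 47.7%. Because these values moved with the groups, results are given below on more than one scale. The epithelial markers of the line were present, with summed levels of 805 to 906 FPKM in LV-NC and 845 to 892 FPKM in LV-SNORA28, of which VIL1 stayed at or below 0.04 FPKM in every library. Fibroblast markers summed to 3.22 to 4.52 FPKM over the 6 libraries, nearly all from COL1A1, with COL1A2, DCN and LUM listed at 0. The 6 leukocyte markers summed to 1.08 to 2.21 FPKM in LV-NC and 2.49 to 4.16 FPKM in LV-SNORA28, mostly from CD68, with PTPRC at or below 0.08 FPKM and listed at 0 in LV-SNORA28. The 3 erythroid markers summed to 0.51 to 0.87 FPKM in LV-NC and 1.71 to 3.77 FPKM in LV-SNORA28, from HBA1 and HBA2, with HBB at or below 0.03 FPKM. Their part in the results was not tested.

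Ribosomal protein genes were among the highest in the libraries: 75 of the 80 members averaged 50 FPKM or more over the libraries. RPS12 (eS12, a protein of the small subunit head) stood highest and was listed at 1451, 1399.6 and 1500.2 FPKM across the LV-NC replicates, against 1244, 1307 and 1249 across the LV-SNORA28 replicates. RPS2 (uS5, at the mRNA entry channel) followed with 1283, 1473 and 1358 FPKM across the LV-NC replicates, against 1122, 861 and 1078 across the LV-SNORA28 replicates. In both genes every LV-SNORA28 library lay below every LV-NC library. RPL41, the shortest ribosomal protein, was at 1045, 951 and 908 FPKM across the LV-NC replicates, against 742, 845 and 778 across the LV-SNORA28 replicates. RPS18 (uS13, at the subunit interface) was at 989.9, 881 and 961 FPKM across the LV-NC replicates, against 791, 789 and 767 across the LV-SNORA28 replicates, again without overlap between the groups. RPL8 (uL2, next to the peptidyl transferase centre) was at 529.9, 997 and 963 FPKM across the LV-NC replicates, against 823, 877 and 869 across the LV-SNORA28 replicates, where LV-NC 1 was far below the other 5 libraries. In LV-NC the means of RPL41 (968 FPKM, SD 69.9) and RPS18 (944 FPKM, SD 56.3) differed by less than either SD. RPL8 (830 FPKM, SD 261) lay below every LV-NC library of both, and its wide SD came with the low LV-NC 1 library.

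Among tested members, mean levels ran from 13.7 FPKM (RPS29) to 1358 FPKM (RPS12), with a median of 195 FPKM. The median was 208 FPKM over large-subunit members and 195 FPKM over small-subunit members. Replicates were close for most members, with a median ratio of the highest to the lowest library of 1.12 within LV-NC and 1.11 within LV-SNORA28. The widest ratios were 2.12 for RPL29 and 1.88 for RPL8 within LV-NC, and the widest within LV-SNORA28 among the members reported was 1.57 for RPS3A.

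Of the 80 genes, 3 (RPL3L, RPL10L and RPL39L) were below the filter of a mean of 1 FPKM. They are copies used mainly in striated muscle (RPL3L) and in testis (RPL10L and RPL39L). None exceeded 0.22 FPKM in any library. Of their widely used counterparts, RPL3 was at 513, 569 and 564 FPKM across the LV-NC replicates, against 497, 456 and 512 across the LV-SNORA28 replicates. RPL10 was at 222, 217 and 226 FPKM across the LV-NC replicates, against 204, 217 and 203 across the LV-SNORA28 replicates. RPL39 was at 114, 117 and 119 FPKM across the LV-NC replicates, against 125, 126 and 121 across the LV-SNORA28 replicates. RPL3 was lower and RPL39 higher in every LV-SNORA28 library than in every LV-NC library, and the RPL10 groups overlapped, but none of the 3 genes passed the test (adjusted p from limma, 0.197, 0.327 and 0.323).

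As deposited, the family was lower in sum in LV-SNORA28 than in LV-NC, though its share of the whole FPKM sum differed by less than the spread between libraries. The 80 members summed to 23609, 24675 and 23553 FPKM across the LV-NC replicates, against 21648, 21905 and 21048 across the LV-SNORA28 replicates. The groups did not overlap and their means differed by −10.1%. As a share of the whole FPKM sum the members took 7.05%, 6.59% and 6.94% in LV-NC and 6.79%, 6.84% and 6.88% in LV-SNORA28, and these ranges overlapped. As a share of the FPKM sum of nuclear genes alone, they took 12.4% ± 0.241 in LV-NC and 10.9% ± 0.155 in LV-SNORA28 (SD, n = 3), again without overlap. In such bulk values, fewer cells of a type and less RNA per cell cannot be told apart.

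**Figure D1:**
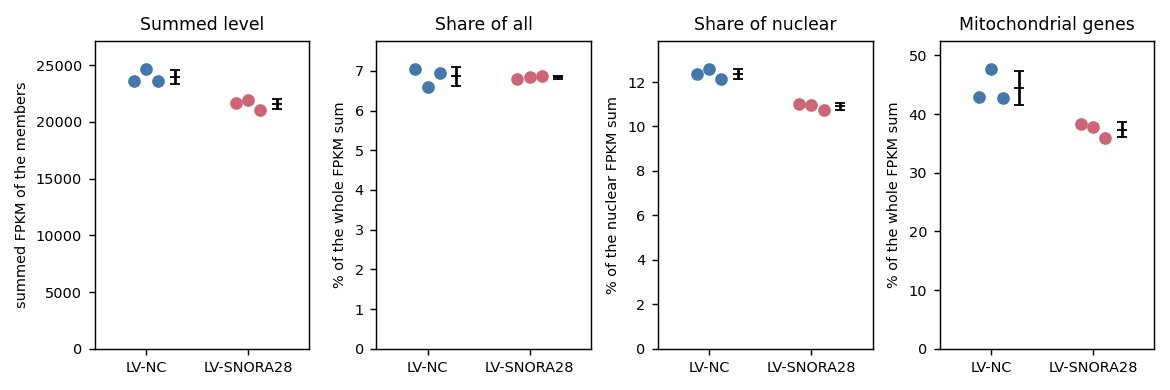
Summed level of the 80 ribosomal protein genes (FPKM), their share of the whole FPKM sum, their share of the nuclear FPKM sum and the share of mitochondrial genes, for each library (points) with the mean and SD of 3 libraries per group (bars). The LV-SNORA28 points lie below LV-NC for the sum and the nuclear share and overlap them for the share of the whole sum, while the mitochondrial share was 44.4% in LV-NC and 37.3% in LV-SNORA28.

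Both subunits were lower in sum as deposited. Large-subunit members summed to 13585 ± 499 FPKM in LV-NC and 12321 ± 299 FPKM in LV-SNORA28, and small-subunit members to 10360 ± 144 and 9212 ± 232 FPKM (SD, n = 3). The ratio of large to small was 1.31 ± 0.0324 in LV-NC and 1.34 ± 0.0367 in LV-SNORA28, with overlapping libraries. The highest of the 6 libraries was one of LV-NC for 67 of the 77 tested members, LV-NC 2 for 33 of them, and the lowest was one of LV-SNORA28 for 66, LV-SNORA28 3 for 33 of them.

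Gene by gene, limma was fitted to log2(FPKM + 1) over the 12076 genes that averaged 1 FPKM or more, and p-values were adjusted over all of them by the Benjamini-Hochberg method. The log2 fold change of LV-SNORA28 against LV-NC was below 0 in 63 of 77 members, 81.8%, and in 33.3% of all genes tested. Its median was −0.14 over the members and 0.09 over all genes, a difference of −0.22. Other nuclear genes that averaged 50 FPKM or more, pseudogenes left out, numbered 453 and had a median of 0.08, with 34.0% below 0. The median was −0.16 over the 46 large-subunit members, 37 of them below 0, and −0.13 over the 31 small-subunit members, 26 of them below 0.

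These differences were small, and few members passed the test. At an adjusted p below 0.05, 3 members fell (RPL13A, RPL36 and RPS24), against 2.1% of all genes tested, and 1 rose (RPL14), against 6.81%. At an unadjusted p below 0.05, 26 members were lower against 6.08% of all genes, and 1 was higher against 22%. The groups did not overlap with LV-SNORA28 lower in 37 members, 24 of the large and 13 of the small subunit, against 8.16% of all genes. They did not overlap with LV-SNORA28 higher in 3 members (RPL14, RPL39 and RPS9), against 27%. No member reached the threshold that the study used, a fold change above 1.5 together with an unadjusted p below 0.05, which 1.22% of all genes passed as lower and 2.58% as higher. Of the 46 large-subunit members, 26 had a mean over 10% lower in LV-SNORA28, 19 lay within 10% and 1 was over 10% higher. Of the 31 small-subunit members these counts were 12, 19 and 0.

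**Figure D2:**
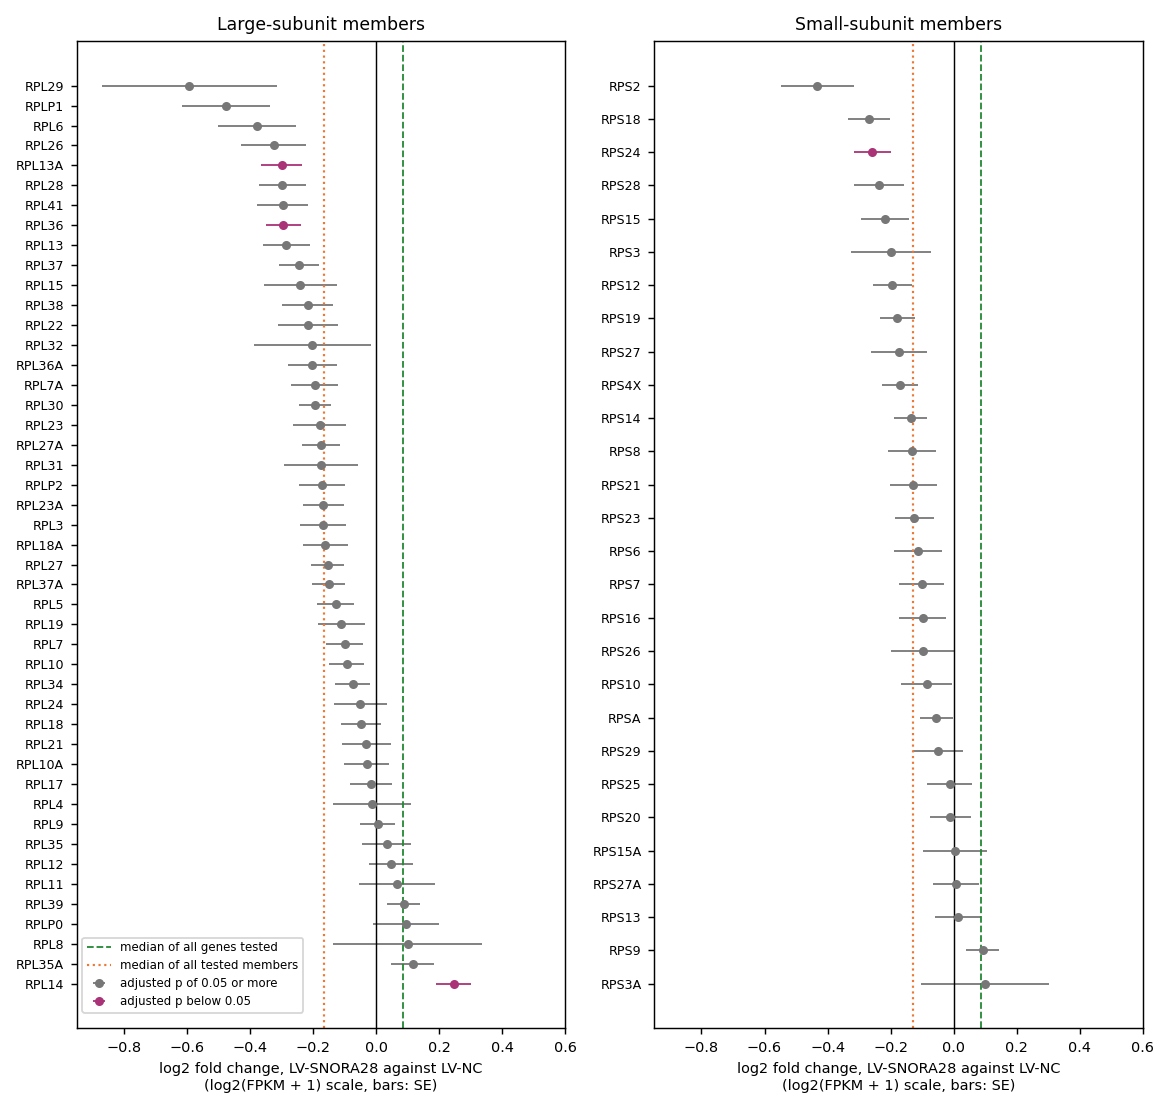
Log2 fold change of LV-SNORA28 against LV-NC with its SE for the tested members reported by name, ordered within each subunit; colour marks an adjusted p below 0.05, the dotted line the median of all tested members of that subunit and the dashed line the median of all genes tested. On the values as deposited, most members lie left of 0 and the medians are −0.16 (large) and −0.13 (small) against 0.09 for all genes, whereas under scaling to the whole FPKM sum the medians are −0.0163 and 0.0196.

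The direction of the family against 0 depended on the scale. Scaled to the nuclear FPKM sum, the median over the members was −0.16 with 67 of 77 below 0. Under median-of-ratios scaling, which centres the typical gene, it was −0.24 with 75 below 0, and under quantile normalization −0.10 with 63 below 0. Scaled to the whole FPKM sum of each library, it was 0.01 with 38 of 77 below 0, while the median of all genes moved from 0.09 to 0.20. On that scale 2 members were lower and 5 higher at an unadjusted p below 0.05, and 3 rose and none fell at the adjusted threshold. Of all 12076 genes tested, 1923 rose and 138 fell at the adjusted threshold on the same scale. Taken against the median of all genes tested on the same scale, the median of the members was lower in each of the 5 scalings. The differences were −0.22 as deposited, −0.23 on the nuclear sum, −0.24 under median-of-ratios scaling and −0.19 on the whole sum. Each of these rescalings multiplies all genes of a library by the same factor. Such a step shifts members and other genes almost alike, so these near-equal differences are not separate checks. Quantile normalization, which does not work by such a factor, gave a smaller difference of −0.10. The mitochondrial share moved with the groups, and its part in these values was not tested beyond the scalings given.

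**Figure D3:**
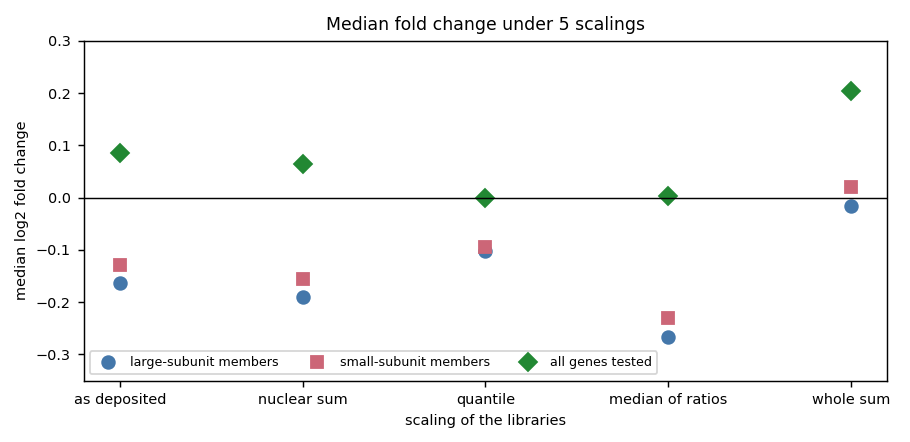
Median log2 fold change of LV-SNORA28 against LV-NC over the 46 large-subunit members, the 31 small-subunit members and all 12076 genes tested, for the values as deposited and 4 other scalings of the libraries. The members lie below all genes in every column, but on the whole FPKM sum they lie at −0.0163 (large) and 0.0196 (small), close to 0. All columns except quantile normalization differ only by a factor per library, so their distance from all genes could hardly change.

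RPL36 (eL36, ENSG00000130255, chr19:5674947-5691875, plus strand), a small basic protein of the large subunit, had the lowest adjusted p. It was listed at 145, 143 and 138 FPKM across the LV-NC replicates, against 113, 121 and 113 across the LV-SNORA28 replicates. Every LV-SNORA28 library was below every LV-NC library, and the log2 fold change was −0.29 (SE 0.056, limma adjusted p = 0.0294). RPL13A (uL13, ENSG00000142541, chr19:49487510-49493057, plus strand) is also known for a role outside the ribosome, in silencing inflammatory transcripts, and hosts small nucleolar RNAs in its introns. It was listed at 805, 787 and 716 FPKM across the LV-NC replicates, against 627, 631 and 614 across the LV-SNORA28 replicates, without overlap, and its log2 fold change was −0.30 (SE 0.066, adjusted p = 0.0416). RPS24 (eS24, ENSG00000138326, chr10:78033760-78056813, plus strand), needed for processing of the small-subunit ribosomal RNA and mutated in some families with Diamond-Blackfan anaemia, was listed at 147, 154 and 139 FPKM across the LV-NC replicates, against 121, 126 and 121 across the LV-SNORA28 replicates. It fell by 0.26 on the log2 scale (SE 0.060, adjusted p = 0.0481), with the 3 LV-SNORA28 libraries close together and below the control range. On the whole FPKM sum these 3 log2 fold changes were −0.15, −0.15 and −0.11, and none of them passed the test. Under quantile normalization RPL36 passed (adjusted p = 0.0464), while RPL13A (0.137) and RPS24 (0.0850) did not.

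RPL14 (eL14, ENSG00000188846, chr3:40457292-40468587, plus strand), a protein of the large subunit, was the single member that rose. It was listed at 54.2, 57.0 and 54.1 FPKM across the LV-NC replicates, against 64.0, 68.0 and 64.7 across the LV-SNORA28 replicates. Its log2 fold change was 0.25 (SE 0.055, adjusted p = 0.0440), and LV-SNORA28 stood above LV-NC in every library. It did not pass on the nuclear FPKM sum (0.22, adjusted p = 0.0532), under quantile normalization (0.17, 0.102) or under median-of-ratios scaling (0.15, 0.240), and it passed on the whole FPKM sum (0.39, 0.0139). The value is uncertain, because a processed copy moved the other way: RPL14P1 on chromosome 12 was at 72.4, 77.5 and 68.9 FPKM across the LV-NC replicates, against 54.0, 56.5 and 51.1 across the LV-SNORA28 replicates. RPL14P1 fell by 0.43 on the log2 scale (adjusted p = 0.0179). The plain sum of RPL14 and its 5 annotated pseudogenes was 129, 136 and 124 FPKM across the LV-NC replicates, against 118, 125 and 117 across the LV-SNORA28 replicates, and these groups overlapped. With pseudogenes added in proportion to annotated length, the log2 fold change of RPL14 was 0.19 and its adjusted p 0.0890. The annotated canonical transcript of RPL14 is 7136 bases long, so that the gene outweighs its copies in that sum. How reads were divided between gene and copy was not given in the sources used here.

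For the 3 members that fell, the copies were near 0 or lay in the same direction as the gene. The pseudogenes of RPL36 summed to 0.900 FPKM in LV-NC and 0.770 FPKM in LV-SNORA28. Those of RPL13A summed to 197 ± 13.8 and 159 ± 5.73 FPKM, and those of RPS24 to 28.4 ± 0.814 and 19.6 ± 2.29 FPKM (SD, n = 3). Each of the 3 was still called when its pseudogenes were added. Over the family, 1587 pseudogenes carrying member symbols were listed and summed to 6833 ± 238 FPKM in LV-NC and 5871 ± 236 in LV-SNORA28 (SD, n = 3). Of these, 168 passed the filter, and 139 of the 168 had a log2 fold change below 0 (82.7%, against 33.3% of all genes tested). The pseudogenes were lower by more than the members. Their median was −0.36, and −0.23 on the whole FPKM sum, against −0.14 and 0.01 over the members. At the adjusted threshold 55 of the 168 fell and 2 rose, against 2.1% and 6.81% of all genes tested.

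All 4 calls were near the threshold. None of the 4 genes stayed below 0.05 when any 1 of the 6 libraries was left out, with adjusted p-values of 0.0636 to 0.109 for RPL36, 0.0517 to 0.135 for RPL13A, 0.0660 to 0.150 for RPS24 and 0.0787 to 0.153 for RPL14. Their signs held in each of these fits, with log2 fold changes of −0.33 to −0.28, −0.35 to −0.27, −0.30 to −0.22 and 0.22 to 0.27 in the same order.

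**Figure D4:**
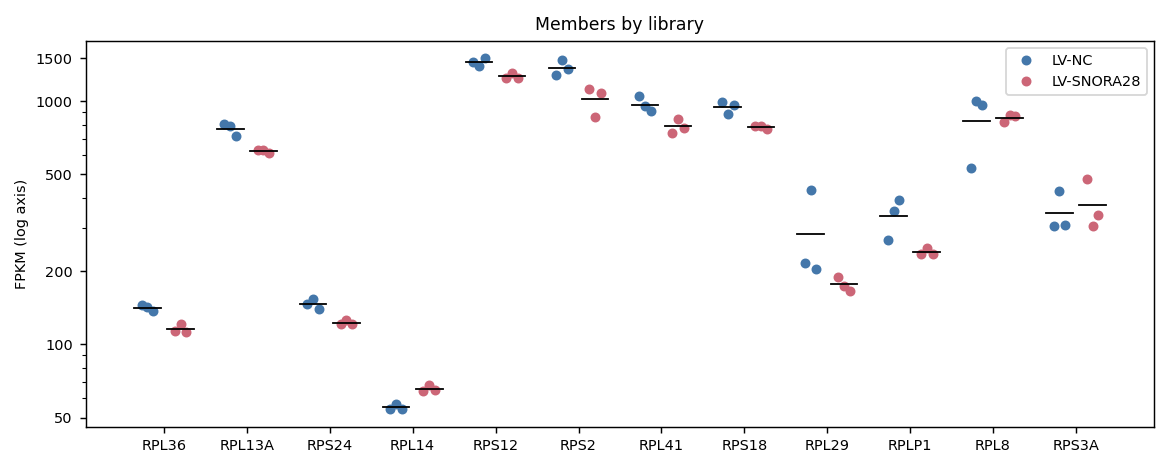
FPKM (log axis) of the 4 members that passed the test, the members of highest level and 4 members with large differences or wide replicates, for each library (points) with the mean of 3 libraries per group (lines). RPL36, RPL13A and RPS24 lie lower and RPL14 higher in all LV-SNORA28 libraries, while RPL29 and RPL8 each have 1 LV-NC library far from the others.

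The largest differences did not belong to the genes that passed the test. RPL29 (eL29), a small basic protein of the large subunit, was listed at 216, 431 and 203 FPKM across the LV-NC replicates, against 189.6, 174 and 166 across the LV-SNORA28 replicates. One library, LV-NC 2, stood far above the other controls, the groups did not overlap, and the log2 fold change of −0.59 (SE 0.28, adjusted p = 0.224) was −0.25 without it. The pseudogenes of RPL29 moved the other way, at 86.5 FPKM in LV-NC and 136 FPKM in LV-SNORA28. With them added, the log2 fold change of RPL29 was −0.31 (limma adjusted p = 0.457). RPL6 (eL6) was at 206, 254 and 223 FPKM across the LV-NC replicates, against 159, 205 and 162 across the LV-SNORA28 replicates, without overlap by a narrow margin, with a log2 fold change of −0.38 (SE 0.12, adjusted p = 0.108). With its pseudogenes added, RPL6 was at −0.22 (limma adjusted p = 0.182). RPLP1, RPS2 and RPL26, the next largest, are described with their sites on the ribosome. Apart from RPL14, no member with a positive log2 fold change passed the test. RPL35A (eL33) was at 168, 190.0 and 166 FPKM across the LV-NC replicates, against 190.3, 188 and 188 across the LV-SNORA28 replicates, with a log2 fold change of 0.12 and LV-NC 2 within the range of LV-SNORA28. RPL8 had a log2 fold change of 0.10 that turned to −0.20 without LV-NC 1. RPS3A (eS1) was at 308, 427 and 309 FPKM across the LV-NC replicates, against 481, 306 and 340.1 across the LV-SNORA28 replicates, and 1 library of each group stood well above the rest. RPS9 (uS4), chosen for mention after its values were seen, was at 152, 156 and 146 FPKM across the LV-NC replicates, against 161, 165 and 158 across the LV-SNORA28 replicates. Its groups did not overlap, and its log2 fold change was 0.09 (adjusted p = 0.317). Among the scalings tried, RPS9 and RPL35A passed the test on the whole FPKM sum only (adjusted p 0.0431 and 0.0293), where RPL14 passed as well (0.0139).

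The P stalk is the flexible arm of the large subunit that recruits and activates the translational GTPases. RPLP0 (uL10) is its base and was at 391, 325 and 362 FPKM across the LV-NC replicates, against 433, 361 and 358 across the LV-SNORA28 replicates. RPLP1, one of the acidic proteins bound to that base, was at 268, 355 and 393 FPKM across the LV-NC replicates, against 235, 249 and 236 across the LV-SNORA28 replicates. Its partner RPLP2 was at 385, 383 and 389.8 FPKM across the LV-NC replicates, against 313, 365 and 353 across the LV-SNORA28 replicates. RPLP1 and RPLP2 were lower in every LV-SNORA28 library, and the RPLP0 groups overlapped. RPLP1 had a log2 fold change of −0.48 (SE 0.14, adjusted p = 0.0835) and passed the test without LV-NC 1, its lowest control library (adjusted p = 0.0197). RPL12 (uL11), at the foot of the stalk, was at 603, 641 and 564 FPKM across the LV-NC replicates, against 641, 629 and 595 across the LV-SNORA28 replicates. None of the 4 stalk genes passed the test, and 2 of 4 had a log2 fold change below 0, against 81.8% of all tested members.

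RPL5 (uL18) and RPL11 (uL5) join the 5S ribosomal RNA in a particle that, when it is not built into ribosomes, binds MDM2 and stabilizes p53. RPL5 was at 238, 243 and 226 FPKM across the LV-NC replicates, against 215, 223 and 209 across the LV-SNORA28 replicates, lower in every LV-SNORA28 library (log2 fold change −0.13, adjusted p = 0.211). RPL11 was at 338, 284 and 248 FPKM across the LV-NC replicates, against 322, 299.7 and 282 across the LV-SNORA28 replicates, where the groups overlapped (log2 fold change 0.07, adjusted p = 0.766). Neither passed the test.

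Of the 9 proteins listed for the tunnel through which the nascent chain leaves, 7 had a log2 fold change below 0. That was 77.8%, near the 81.8% of all tested members. The median was −0.11 and none passed the test. RPL26 (uL24), near the tunnel exit, was at 230.4, 232 and 284 FPKM across the LV-NC replicates, against 201, 211 and 181 across the LV-SNORA28 replicates (log2 fold change −0.32, adjusted p = 0.101). RPL23A (uL23), a docking site for the signal recognition particle, was at 480.4, 499 and 453 FPKM across the LV-NC replicates, against 442, 429 and 405 across the LV-SNORA28 replicates (log2 fold change −0.17, adjusted p = 0.156). RPL22 (eL22) was at 111, 114 and 106 FPKM across the LV-NC replicates, against 82.1, 103 and 101 across the LV-SNORA28 replicates (log2 fold change −0.22, adjusted p = 0.197). With pseudogenes added, the log2 fold changes of RPL26, RPL23A and RPL22 were −0.35, −0.18 and −0.12 (limma adjusted p = 0.0695, 0.122 and 0.504). These 3 were the tunnel genes with LV-SNORA28 lower and no overlap, and RPL39 was the 1 with LV-SNORA28 higher and no overlap. RPL4, RPL17, RPL19, RPL31 and RPL35 overlapped between the groups, with log2 fold changes from −0.17 (RPL31) to 0.03 (RPL35).

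On the small subunit, RPS2, RPS3 (uS3), RPS15 (uS19) and RPS23 (uS12) line the mRNA entry and the decoding centre. All 4 had a log2 fold change below 0, against 81.8% of all tested members, with a median of −0.21 as deposited and −0.06 on the whole FPKM sum. The list is not complete for these sites. RPS9 (uS4), also at the mRNA entry, was not on it and went the other way, with a log2 fold change of 0.09. RPS2 had the largest value, −0.43 (SE 0.12, adjusted p = 0.0670). Its pseudogenes summed to 752 FPKM in LV-NC and 685 FPKM in LV-SNORA28. With them added, the log2 fold change of RPS2 was −0.32 (limma adjusted p = 0.0670). Under quantile normalization it was −0.27 (limma adjusted p = 0.349). RPS15 was at 71.0, 81.6 and 74.7 FPKM across the LV-NC replicates, against 67.5, 67.1 and 60.4 across the LV-SNORA28 replicates (log2 fold change −0.22, adjusted p = 0.126). RPS23 was at 193, 196 and 198 FPKM across the LV-NC replicates, against 173, 192 and 173 across the LV-SNORA28 replicates (log2 fold change −0.12, adjusted p = 0.245). RPS3 overlapped between the groups (log2 fold change −0.20, adjusted p = 0.357). None of the 4 passed the test.

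At the mRNA exit, 4 of the 5 listed genes (80%) had values below 0, near the 81.8% of all tested members, and none passed the test. RPS14 (uS11) was at 157, 158 and 157 FPKM across the LV-NC replicates, against 145, 147 and 137 across the LV-SNORA28 replicates, with every LV-SNORA28 library below the control range (adjusted p = 0.154). RPS28 (eS28) was at 52.5, 48.2 and 53.7 FPKM across the LV-NC replicates, against 44.9, 46.1 and 39.7 across the LV-SNORA28 replicates, without overlap (log2 fold change −0.24, adjusted p = 0.113). RPS26 (eS26) was at 150.2, 191 and 171 FPKM across the LV-NC replicates, against 161, 168 and 146 across the LV-SNORA28 replicates, with overlap. The pseudogenes of RPS28 stood far above the gene, at 373 FPKM in LV-NC and 381 FPKM in LV-SNORA28. With pseudogenes added, RPS14, RPS28 and RPS26 had log2 fold changes of −0.14, −0.09 and −0.17 (limma adjusted p = 0.153, 0.430 and 0.375). RPS3A, described above, also belongs to this list.

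Genes mutated in Diamond-Blackfan anaemia, a red-cell aplasia caused by too little of 1 ribosomal protein, were compared as a list of 9. The list is not complete for this disease. RPS24 fell and none rose, against 2.1% and 6.81% of all genes tested. Of the 9, 7 had a log2 fold change below 0 (77.8%), near the 81.8% of all tested members and against 33.3% of all genes tested. The median was −0.10, against −0.14 over all tested members. RPS19 (eS19), the gene most often affected in that disease, was at 209, 221 and 212 FPKM across the LV-NC replicates, against 186, 185 and 196 across the LV-SNORA28 replicates (log2 fold change −0.18, SE 0.056, adjusted p = 0.0965). RPS7 and RPS10 overlapped between the groups, with log2 fold changes of −0.10 and −0.09. On the whole FPKM sum the median of the list was 0.05, with 2 of 9 below 0.

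Some ribosomal proteins lie outside the rule on symbols. Of 8 such genes, 1 rose and 1 fell, against 6.81% and 2.1% of all genes tested, and 6 did not pass the test. RPL22L1 (ENSG00000163584, chr3:170864875-170870208, minus strand), a paralog that can replace RPL22, rose: it was listed at 45.1, 46.3 and 33.0 FPKM across the LV-NC replicates, against 58.8, 67.5 and 72.7 across the LV-SNORA28 replicates, and the log2 fold change was 0.67 (SE 0.15, adjusted p = 0.0398). LV-SNORA28 was above LV-NC in every library, while RPL22 was lower in every library. RPL36AL (ENSG00000165502, chr14:49618530-49620626, minus strand), which encodes nearly the same protein as RPL36A, fell: it was listed at 259, 268 and 262 FPKM across the LV-NC replicates, against 207, 226 and 214 across the LV-SNORA28 replicates, with a log2 fold change of −0.28 (SE 0.057, adjusted p = 0.0335). RPL36A itself was at 83.5, 78.3 and 73.1 FPKM across the LV-NC replicates, against 62.9, 71.1 and 69.9 across the LV-SNORA28 replicates (log2 fold change −0.20, adjusted p = 0.147). On the whole FPKM sum RPL36AL did not pass (log2 fold change −0.14, adjusted p = 0.185) and RPL22L1 did (0.82, adjusted p = 0.0148). RPL22L1 did not pass under quantile normalization (0.59, adjusted p = 0.0716) or median-of-ratios scaling (0.57, adjusted p = 0.0820). Both calls were lost when any 1 library was left out (adjusted p 0.0591 to 0.126 for RPL22L1 and 0.0600 to 0.117 for RPL36AL). FAU, which encodes eS30 fused to a ubiquitin-like protein, had a log2 fold change of 0.01. RACK1, a scaffold on the small subunit head, was at 128, 120.3 and 146 FPKM across the LV-NC replicates, against 111, 121 and 97.7 across the LV-SNORA28 replicates (log2 fold change −0.25, adjusted p = 0.179).

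**Figure D5:**
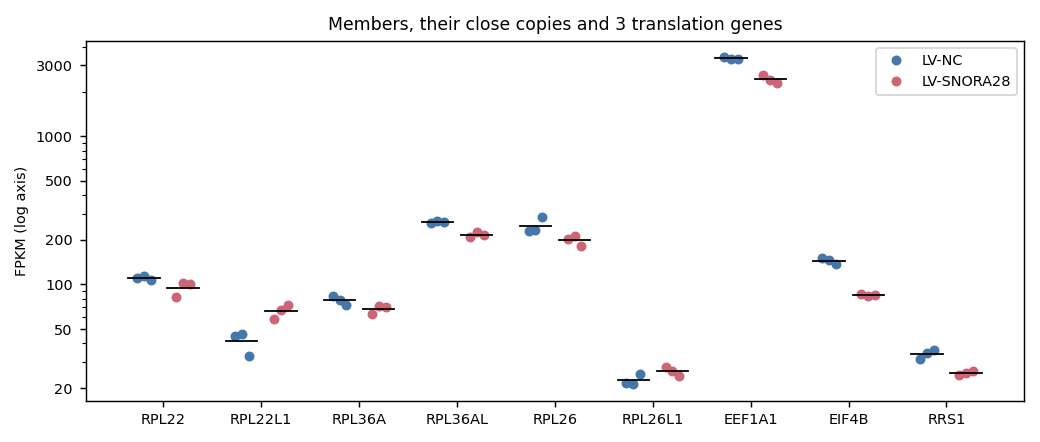
FPKM (log axis) of the members RPL22, RPL36A and RPL26, the close copy of each (RPL22L1, RPL36AL and RPL26L1) and the translation genes EEF1A1, EIF4B and RRS1, for each library (points) with the mean of 3 libraries per group (lines). RPL22L1 lies higher in all LV-SNORA28 libraries and RPL22 lower, whereas EEF1A1 and EIF4B lie clearly below the control range.

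Translation factors and related genes usually counted among TOP mRNAs were listed beside the family (16 genes, from general knowledge). The single window of EEF1G had no pyrimidine run at its start, and several of the others had no window. Of the 16, 2 fell and none rose at the adjusted threshold, against 2.1% and 6.81% of all genes tested. At an unadjusted p below 0.05 in limma, 3 were lower and 1 was higher, against 6.08% and 22%. Of the 16, 12 had a log2 fold change below 0, against 33.3% of all genes tested (median −0.11, and 0.03 on the whole FPKM sum). EEF1A1 (ENSG00000156508, chr6:73489308-73525587, minus strand), which brings aminoacyl-tRNA to the ribosome, was listed at 3413, 3316 and 3322 FPKM across the LV-NC replicates, against 2577, 2380.4 and 2298 across the LV-SNORA28 replicates. It fell by 0.47 on the log2 scale (SE 0.070, adjusted p = 0.0150), and the call was lost without LV-NC 3, LV-SNORA28 2 or LV-SNORA28 3 (adjusted p 0.0529, 0.0699 and 0.0650). EIF4B (ENSG00000063046, chr12:53006282-53042215, plus strand), a cofactor of the helicase that unwinds mRNA leaders, was listed at 151, 146 and 136 FPKM across the LV-NC replicates, against 85.7, 83.0 and 84.8 across the LV-SNORA28 replicates. Its log2 fold change was −0.76 (SE 0.059, adjusted p = 0.00276), and it passed the test when any 1 library was left out (adjusted p 0.0106 to 0.0185). Both genes also passed on the whole FPKM sum, with log2 fold changes of −0.32 and −0.62. Under quantile normalization EIF4B passed (−0.76, adjusted p = 0.00725) and EEF1A1 did not (−0.0643, adjusted p = 0.563). That method sets values by rank, so a gene near the top that keeps its rank can change little. EEF1A1 stood above every member in all libraries, so its result there does not decide whether its level changed. NPM1, a nucleolar chaperone on this list, had 268, 302 and 289 FPKM across the LV-NC replicates, against 332, 350.5 and 328 across the LV-SNORA28 replicates. It was higher in every LV-SNORA28 library (log2 fold change 0.23, limma adjusted p = 0.0782). NPM1 passed under quantile normalization (0.0439) and on the whole FPKM sum (0.0125). It did not pass on the nuclear FPKM sum (0.21, adjusted p = 0.0854) or under median-of-ratios scaling (0.13, adjusted p = 0.378). Nor did it pass when any 1 library was left out (adjusted p 0.0942 to 0.222).

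Of 13 chaperones of ribosomal proteins and regulators of TOP mRNAs, 1 fell and none rose, against 2.1% and 6.81% of all genes tested, and the median was 0.04. At an unadjusted p below 0.05 in limma, 3 were lower and 2 higher, against 6.08% and 22%. RRS1, which helps to load the 5S particle onto the growing large subunit, was listed at 31.2, 34.3 and 35.9 FPKM across the LV-NC replicates, against 24.6, 25.2 and 26.1 across the LV-SNORA28 replicates (log2 fold change −0.40, SE 0.070, adjusted p = 0.0224). Without LV-NC 1 it passed (adjusted p = 0.0262), and without any other library or on the whole FPKM sum (0.0746) it did not, with adjusted p-values of up to 0.0841. LARP1, which binds the TOP tract, was at 15.3, 24.1 and 28.1 FPKM across the LV-NC replicates, against 24.4, 23.1 and 27.6 across the LV-SNORA28 replicates, with LV-NC 1 apart from the rest and a log2 fold change of 0.18 (adjusted p = 0.610).

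Readthrough genes, which join a member to its neighbour in 1 annotated transcript, overlap the members and are uncertain for that reason. RPL17-C18orf32 was at 25.1, 24.5 and 32.5 FPKM across the LV-NC replicates, against 16.0, 19.4 and 15.7 across the LV-SNORA28 replicates. RPS10-NUDT3 was at 11.4, 12.8 and 9.81 FPKM across the LV-NC replicates, against 6.74, 7.57 and 7.20 across the LV-SNORA28 replicates. Both fell, by 0.65 and 0.59 on the log2 scale (adjusted p = 0.0350 and 0.0227), whereas RPL17 and RPS10 themselves had log2 fold changes of −0.02 and −0.09 and did not pass. With pseudogenes added, RPL17 was at −0.34 (adjusted p = 0.0745) and RPS10 at −0.09 (adjusted p = 0.517). Leaving out any 1 library ended the first call (adjusted p 0.0598 to 0.115), and leaving out any library except LV-NC 3 ended the second (0.0281 to 0.0795). The first was also lost on the whole FPKM sum (adjusted p = 0.0535). RPL36A-HNRNPH2 was at 23.9, 0 and 1.85 FPKM in LV-NC and listed at 0 in every LV-SNORA28 library. These 3 genes were taken after their values were seen.

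Across the 77 tested members the log2 fold change was only weakly related to other properties of the genes. Spearman's rho was −0.15 with the length of the canonical transcript, −0.14 with its GC content, −0.04 with the mean level and 0.01 with the number of pseudogenes, of which members had a median of 14. Genes share libraries and are not independent replicates, so these values are descriptions. Of the 80 members, 12 lie on chromosome 19, RPL36 and RPL13A among them, and 8 on chromosome 3.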

How the data were processed

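RNA sequencing of HCT116 cells gave 1 table per library, for 3 LV-NC and 3 LV-SNORA28 libraries, grouped by title. The authors deposited FPKM values, fragments scaled to transcript length and library total, by Ensembl gene with at most 2 decimals. The submitters' processing notes name cutadapt 1.9, HISAT2 2.2.1, StringTie 2.1.6, DESeq2, edgeR and hg38, without their roles. Counts and read depth were not given in the sources used here, so precision rests on the spread between libraries. FPKM is relative, so a change in abundant transcripts shifts every other gene, and reads of near-identical copies may be divided between them.

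The gene identifiers were matched to GENCODE release 44 on GRCh38 (60401 of 60612 with a symbol). The 12076 genes averaging 1 FPKM or more were fitted in limma 3.58.1 (R 4.3.3) as log2(FPKM + 1), with a mean-variance trend and two-sided p-values adjusted over all genes tested (Benjamini-Hochberg). This scale understates changes of low genes. Sums, shares and medians over members carry no test. Named members were those called, the 5 with the largest fold change in each direction, the 5 highest, those below the filter, and lists by site or disease compiled from general knowledge (44 genes). The results of some are not reported here, though they count in the totals. Other ribosomal proteins, TOP factors and chaperones gave context. Members and lists were chosen with earlier results of these data known. Start windows were RefSeq sequences on GRCh38.p14. Alternatives were other scalings, filters and pseudocounts, no trend, a replicate block, members summed with pseudogenes weighted by canonical transcript length, the threshold of the study and each library left out. Scaling to the whole FPKM sum was added after the data were seen.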

Additional observations from a re-analysis of the deposited data

How the results depend on the processing

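The medians of both subunits were below 0 in all settings except scaling to the whole FPKM sum, chosen after seeing the data. There the large-subunit median was still below 0, at -0.0163, and the small-subunit median was above 0, at 0.0196. Under quantile normalization the large-subunit median was -0.10 and the difference of the members from all genes -0.0967. Median-of-ratios scaling gave medians of -0.27 and -0.23, and called 8 members, 6 large and 2 small, all lower. On the nuclear FPKM sum the share of the members differed by -1.45 percentage points, against -0.0243 on the whole sum.

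The number of members called, 4 in the reported fit (3 large and 1 small), was 0 without a filter (0 large, 0 small) and 0 at the threshold of the study (0 large, 0 small), in limma fits with 23 and 26 lower and 1 and 1 higher at an unadjusted p below 0.05. It was 1 without a trend (1 large, RPL36, and 0 small). Under quantile normalization it was 5, all lower (RPL27A, RPL36, RPL37, RPL37A and RPS15), 1 of them shared with the reported 4. On the nuclear sum it was 4, all lower, with RPL28 in place of RPL14. A minimum of 5 FPKM and adding the pseudogenes each gave 2 small-subunit calls. Leaving out 1 library gave 0 to 1 members called, 0 to 1 large and 0 small, the 1 being RPLP1 without LV-NC 1. With the replicate block, 1 member was called (1 large, RPL6, and 0 small), and none of the 4 reported. Deviations of same-numbered libraries correlated at -0.0441, 0.0914 and 0.00983, so the numbers were not taken to pair the libraries. Over all genes, calls were 254 lower and 822 higher as deposited, 264 and 615 on the nuclear sum, 375 and 451 under quantile normalization, 361 and 399 under median-of-ratios scaling, 138 and 1923 on the whole sum, 91 and 306 without a filter, and 132 and 378 with the block. Leaving out 1 library gave 90 to 137 lower and 188 to 492 higher. The cause of these changes was not tested.

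Some single log2 fold changes changed sign. Under median-of-ratios scaling they were RPL8 -0.0025, RPS3A -0.0034, RPLP0 -0.0084, RPL12 -0.0565, RPL11 -0.0369, RPL35 -0.0691 and RPL39 -0.0138. With pseudogenes added they were RPLP0 -0.0321 and RPL39 -0.0151, and under quantile normalization RPL19 0.022 and RPL35 -0.0019. On the whole FPKM sum they were RPL5 0.0200, RPL4 0.1348, RPL17 0.131, RPL19 0.0383, RPS23 0.0228, RPS14 0.0109, RPS26 0.0499, RPS7 0.0453, RPS10 0.0616 and RPL10 0.0552. Leaving out 1 library gave ranges of -0.20 to 0.26 for RPL8, -0.15 to 0.0977 for RPL4, -0.0603 to 0.0304 for RPL17, -0.00084 to 0.0915 for RPL12, -0.0417 to 0.18 for RPL11, -0.0093 to 0.0978 for RPL35 and -0.0922 to 0.26 for RPS3A. Among the single log2 fold changes with all 6 libraries, 342 kept direction and side of the threshold, 20 lost the call and 7 gained it, counted over genes and settings.

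Depth is unknown, so no detection limit can be given for members listed near 0, and 3 libraries per group limit what a small change can show.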
